A study of Mus musculus with 188 samples.

Results

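Replication timing was read in single S-phase mouse embryonic stem cells (mESCs) at the loci of 8 transcription factors that direct embryonic cell lineages. They were T and Eomes of the mesoderm, Gata4, Gata6, Sox17 and Foxa2 of the endoderm, Cdx2 of the trophoblast and Myod1 of skeletal muscle. The genes were chosen by name, and a locus was made of the 50 kb bins within 100 kb of the gene in the mouse genome mm10. This gave 8 of the 19950 autosomal protein-coding gene loci with values, and 40 bins, of which 38 were used among 45112 autosomal bins. The other 2 bins lay next to T, at chr17:8300001-8400000, and had no replication state. A locus held 3 to 6 used bins. Neighboring bins were smoothed and segmented together by the authors, so the bins of a locus are close to 1 measurement.

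Cells of 2 lines were compared. H129-2 is a haploid mESC line, with 75 S-phase cells that had values. F121-9 is a hybrid diploid mESC line with 1 chromosome set of musculus 129 and 1 of Castaneus, with 63 S-phase cells. Cells were sorted from S phase by DNA content, and the labels name no treatment of either line. The haploid cells had 24.6% to 88.6% of their autosomal bins replicated, with a median of 63.6%, and the diploid cells 18.2% to 79.1%, with a median of 56.6%. This percentage is called progress below. The labels name the cells of each line by well and name no separate cultures or animals, so a line counts as 1 sample, no test was run, and a difference between the lines cannot be told apart from one between their preparations. Every SD given here is over cells, and the sequencing depth of a cell is unknown from these values. Exact binomial intervals at 95% are given for shares of cells, and they cover counting error only. No cells held identical values, and 3 pairs of diploid cells had scores that correlated above 0.9 (0.924 to 0.934).

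In pluripotent cells these genes are largely silent or low, and they are switched on as cells leave pluripotency. T (Brachyury) and Eomes are T-box factors of the primitive streak. GATA and SOX17 factors specify primitive and definitive endoderm, FOXA2 opens chromatin as a pioneer factor in endoderm and the node, CDX2 drives the trophectoderm of the blastocyst, and MYOD1 commits cells to muscle. Mammalian chromosomes replicate in large domains at characteristic times of S phase, with gene-rich, active chromatin generally early and silent, lamina-associated chromatin generally late. Many developmental genes change their replication time when they are activated in differentiation.

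The loci were spread over most of S phase. Scheduled time was taken from the mean smoothed score of all 138 cells, as the percentile rank of a bin placed on an S phase of 10 h. Cdx2 was the earliest locus at 0.594 h, then Myod1 at 0.898 h, Gata4 at 1.64 h, Eomes at 3.01 h, Gata6 at 4.67 h, Sox17 at 4.74 h and T at 5.11 h, and Foxa2 was the latest at 7.19 h. The range was 6.60 h. 6 of the 8 loci were scheduled in the first 5 h, or 5 by the haploid cells alone, and the median of the 8 loci was 3.84 h. Over all 19950 gene loci 79.4% were scheduled in the first 5 h, with a median of 2.57 h. The share of gene loci scheduled earlier was 11.03% for Cdx2, 17.7% for Myod1, 32.5% for Gata4, 57.4% for Eomes, 76.7% for Gata6, 77.4% for Sox17, 80.2% for T and 92.4% for Foxa2. Thus 5 of these loci were later than the median gene locus.

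**Figure D1:**
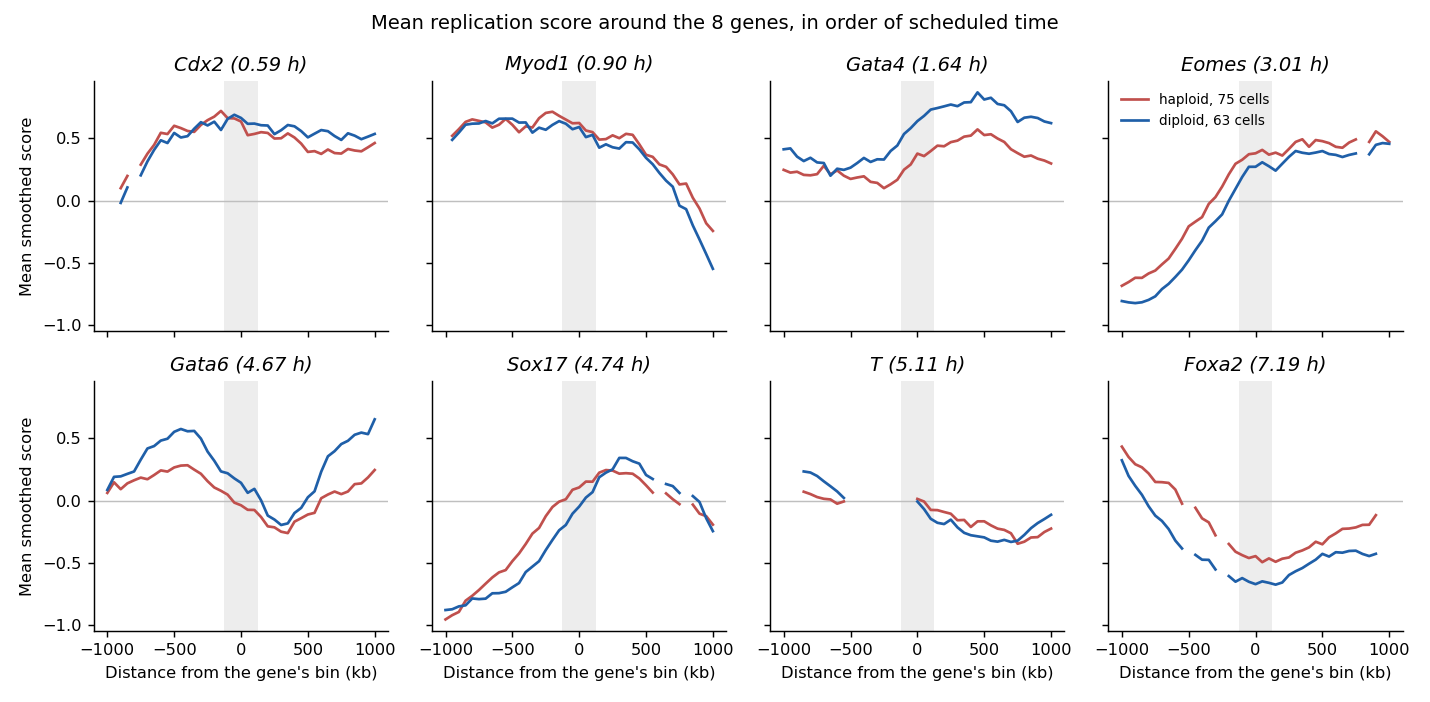
Mean smoothed score of haploid (red, 75 cells) and diploid (blue, 63 cells) cells against distance from the gene's bin in kb, 1 panel per gene in order of scheduled time, with the approximate locus shaded and bins without values left out. The scores are relative within a cell and not matched for progress. Cdx2 and Myod1 lie on broad early plateaus, Gata4, Gata6, Sox17 and T on slopes, Eomes near the upper end of a slope, and Foxa2 in a late trough.

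The promoters of the earliest and the latest locus are shown because they mark the ends of this order and differ in CG content. Each is the 250 bases before the annotated start site, from RefSeq (GRCm38.p6), 5′ to 3′ on the strand of the gene, with every CG dinucleotide in capitals. The Cdx2 promoter lies at chr5:147307250-147307499 and the Foxa2 promoter at chr2:148046970-148047219, both on the minus strand.
Cdx2: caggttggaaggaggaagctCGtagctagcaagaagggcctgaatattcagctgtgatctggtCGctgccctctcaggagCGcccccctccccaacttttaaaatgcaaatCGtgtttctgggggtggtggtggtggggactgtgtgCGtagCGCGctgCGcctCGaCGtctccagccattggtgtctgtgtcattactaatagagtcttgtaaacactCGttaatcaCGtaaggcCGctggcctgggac
Foxa2: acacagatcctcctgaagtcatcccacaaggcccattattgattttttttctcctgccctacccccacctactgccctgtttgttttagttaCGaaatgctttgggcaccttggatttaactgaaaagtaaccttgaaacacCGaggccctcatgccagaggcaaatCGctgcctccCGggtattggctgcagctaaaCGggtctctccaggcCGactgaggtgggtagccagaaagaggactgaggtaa

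The motif searched was CG, which reads the same on both strands. The Cdx2 promoter held 13 and the Foxa2 promoter 6. The T promoter, at the middle of S phase, held 14, and the Eomes promoter held 8. The median of the 32841 listed promoters was 6, and 68.5% of them held fewer than the promoter of Cdx2 and 49.6% fewer than that of Foxa2. Sox17, Gata4, Gata6 and Myod1 are not listed. Over the bins of a locus, GC content was 49.5% at Myod1, 47.3% at Gata4, 46.8% at Cdx2, 46.7% at T, 45.1% at Eomes, 43.7% at Gata6, 43.3% at Foxa2 and 40.95% at Sox17. The median over all bins was 41.4%, and the hourly median fell from 47.4% in the first scheduled hour to 37.02% in the last. Of the 8 loci, 6 lay above the median GC content of their scheduled hour, and Cdx2 and Sox17 lay below it.

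T, the founding T-box factor, is required for mesoderm formation and the notochord. The gene is at chr17:8434423-8442496 and falls in 1 bin. It lay in the last early bin of a 3.65 Mb early domain, of which 39 bins had values, at 50 kb from the place where the schedule crossed 5 h. Its 3 used bins ran from 4.88 h at the gene to 5.38 h. No bin at distances of -500 to -50 kb from the gene's bin was used, and the domain was joined across this gap. The haploid cells alone scheduled the locus at 5.11 h and the diploid cells at 5.09 h. The gene's bin was replicated in 48 of 75 haploid cells (64%, interval 52.1% to 74.8%) and in 41 of 63 diploid cells (65.1%, 52.03% to 76.7%). Locus scores ran from -0.95 to 1.02 in haploid cells, with a median of 0.01, and from -1.31 to 0.90 in diploid cells, with a median of -0.09. The scores of the lines overlapped over most of their range. Below 40% progress the gene was replicated in 4 of 15 cells, between 40% and 60% in 35 of 70, and above 60% in 50 of 53. In the middle class the count was 9 of 25 haploid cells (36%, 17.97% to 57.5%) and 26 of 45 diploid cells (57.8%, 42.2% to 72.3%), and these intervals overlapped.

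The progress that best separated cells with T replicated from cells without it was 54.2%. With this limit 26 of 138 cells were exceptions, of which 13 had replicated it earlier and 13 had not replicated it yet. The earliest cell with T replicated was the diploid cell C7 at 20.4% progress, and the latest without it was a haploid cell at 70.9%. In the 3 cells that had replicated T over 1.5 h ahead of schedule, the replicated stretch around the gene was 1.60 to 4.65 Mb long, counted across the bins without values beside T.

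Eomes, a T-box factor of the primitive streak and of the trophoblast, is at chr9:118478186-118486132, with Golga4 as its one protein-coding neighbor in the locus. The locus lay inside a 6.30 Mb early domain, 250 kb from its transition. Its bins ran from 2.70 to 3.43 h, and the haploid cells scheduled it at 2.36 h against 3.51 h in the diploid cells. The bin of the gene was replicated in 66 of 75 haploid cells (88%, 78.4% to 94.4%) and in 56 of 63 diploid cells (88.9%, 78.4% to 95.4%), with 2 further diploid cells replicated on 1 homolog. Haploid scores ran from -0.57 to 1.11 around a median of 0.39, and diploid scores from -0.94 to 0.96 around 0.27. Progress of 29.4% separated the cells best, with 14 exceptions. Of 118 cells over 1.5 h past its scheduled time, 6 still had Eomes unreplicated on at least 1 homolog. The unreplicated stretch ranged from 0.90 Mb to 8.35 Mb, and the longest, in the diploid cell C10 at 62.5% progress, reached the end of the chromosome.

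Gata4 was the earliest endoderm locus. The gene spans chr14:63198914-63271712, over 3 bins, and its locus holds Blk, Ctsb, Fdft1 and Neil2. It lay well inside the longest of the 8 domains, 9.45 Mb, at 4150 kb from a transition. Within the locus the schedule fell from 2.57 h at the lowest coordinate to 0.907 h at the highest. The haploid cells placed it at 2.52 h and the diploid cells at 1.01 h, a gap of 1.501 h between schedules that are not matched for progress. Its bin was replicated in 69 of 75 haploid cells (92%, 83.4% to 97.0%) and 59 of 63 diploid cells (93.7%, 84.5% to 98.2%), with another 2 diploid cells replicated on 1 homolog. The median score was 0.40 in haploid cells (-1.02 to 1.78) and 0.71 in diploid cells (-0.46 to 1.46). Between 40% and 60% progress Gata4 was replicated in 25 of 25 haploid cells and on both homologs in 43 of 45 diploid cells. At 83.99% progress, the haploid cell G5 still had Gata4 unreplicated, 6.92 h past its scheduled time, within a stretch of 1.55 Mb. In that cell 73.5% of the used bins of the chromosome were replicated.

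Gata6, which specifies primitive endoderm, is at chr18:11052510-11085636, with no other protein-coding gene in its locus. Its early domain was short, 1.15 Mb, with a transition 150 kb away, and its bins ran from 4.26 to 4.95 h. The haploid cells alone scheduled it at 5.15 h, in the second 5 h, and the diploid cells at 4.17 h. Replication of the gene's bin was called in 51 of 75 haploid cells (68%, 56.2% to 78.3%) and 46 of 63 diploid cells (73.02%, 60.4% to 83.4%). Scores ranged from -1.04 to 0.79 in haploid cells (median 0.05) and from -1.59 to 0.96 in diploid cells (median 0.16). Between 40% and 60% progress it was replicated in 12 of 25 haploid cells (48%, 27.8% to 68.7%) and 31 of 45 diploid cells (68.9%, 53.4% to 81.8%), with overlapping intervals. The best separating progress was 55.9% in haploid and 48.2% in diploid cells.

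Sox17, an SRY-related factor of the endoderm, is at chr1:4490928-4497426 beside Rp1, 50 kb from the edge of a 0.95 Mb early domain, the shortest of the 8 domains. Its bins ran from 5.27 h to 4.34 h with rising coordinate. It was replicated in 60 of 75 haploid cells (80%, 69.2% to 88.4%) and in 40 of 63 diploid cells (63.5%, 50.4% to 75.3%). In the middle class these counts were 18 of 25 (72%, 50.6% to 87.9%) and 26 of 45 (57.8%, 42.2% to 72.3%). Scores ranged from -1.13 to 0.85 in haploid cells (median 0.12) and from -0.95 to 1.04 in diploid cells (median -0.04). A limit at 50.5% progress left 30 exceptions, the most of the 8 loci, with 12 cells early and 18 late. The limit within each line left 10 of 75 haploid cells and 19 of 63 diploid cells as exceptions.

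Foxa2, the pioneer factor of endoderm and node, was the latest locus and the only one more than 1 h into the second 5 h. It is at chr2:148042877-148046969, with no other protein-coding gene in the locus, in a late domain of 2.60 Mb and 650 kb from a transition. All 5 bins lay between 7.08 and 7.28 h. The gene's bin was replicated in 28 of 75 haploid cells (37.3%, 26.4% to 49.3%) and in 10 of 63 diploid cells (15.9%, 7.88% to 27.3%). Progress differed between these sets of cells. At matched progress the share of cells with Foxa2 replicated, haploid minus diploid over the bins of the locus, was 0.19 percentage points. It was replicated in 0 of 15 cells below 40% progress (interval up to 21.8%), in 4 of 25 haploid and 4 of 45 diploid cells between 40% and 60%, and in 24 of 39 haploid and 6 of 14 diploid cells above 60%. Scores ran from -1.47 to 0.93 in haploid cells (median -0.58) and from -1.43 to 0.43 in diploid cells (median -0.70). The best limit was 74.7% progress with 19.5 exceptions, where a cell replicated on 1 homolog counts as 0.5. Of 66 cells over 1.5 h ahead of its scheduled time, 5 had replicated it on at least 1 homolog, and the replicated stretches around it were 1.95 to 5.75 Mb long. In 4 of these 5 cells the stretch was longer than the late domain itself.

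Cdx2 sits at chr5:147300900-147307249 beside Pdx1, a pancreatic regulator, Flt3 and Urad. It lay in a 4.95 Mb early domain, 900 kb from a transition. Its 4 bins ran from 0.399 to 1.01 h, and both lines placed it in the first hour, at 0.480 h in haploid and 0.952 h in diploid cells. The gene's bin was replicated in 72 of 75 haploid cells (96%, 88.8% to 99.2%) and in 56 of 63 diploid cells (88.9%, 78.4% to 95.4%). Median scores were 0.59 in haploid cells (-0.52 to 1.73) and 0.78 in diploid cells (-0.92 to 1.69). Every haploid cell past 46.6% progress had it replicated. Above 60% progress it was replicated in 39 of 39 haploid cells (interval from 90.97%) and in 10 of 14 diploid cells (71.4%, 41.9% to 91.6%). The 4 diploid exceptions above 60% were G7, H9, B4 and C3, at 60.3% to 61.95% progress. No haploid cell lay between 59.88% and 63.13%, so the lines are not matched for progress in this class. Their unreplicated stretches were 3.30, 2.50, 0.70 and 0.50 Mb long, and 59.2% to 62.3% of the chromosome was replicated in them.

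Myod1, the myogenic basic helix-loop-helix factor, is at chr7:46376474-46379092, with Kcnc1, Otog and Sergef in its locus. It lay in a 4.75 Mb early domain, 850 kb from a transition, and its bins ran from 0.578 to 1.21 h. The haploid cells scheduled it at 0.543 h and the diploid cells at 1.51 h. The gene's bin was replicated in 71 of 75 haploid cells (94.7%, 86.9% to 98.5%) and 57 of 63 diploid cells (90.5%, 80.4% to 96.4%), with another 2 diploid cells replicated on 1 homolog. Scores had a median of 0.65 in haploid cells (-0.46 to 1.73) and 0.64 in diploid cells (-1.28 to 1.58). All 53 cells above 60% progress had replicated it. A limit at 28.6% progress left 7 exceptions.

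**Figure D2:**
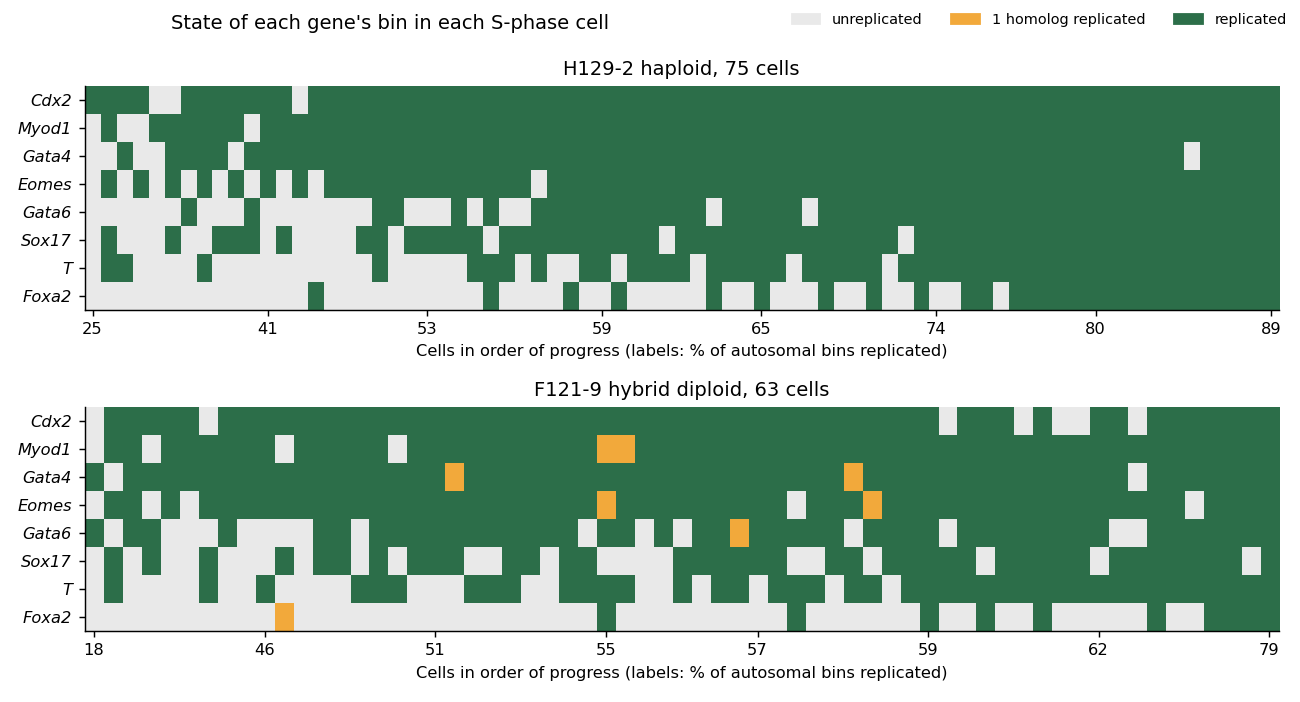
State of each gene's bin (rows, in order of scheduled time) in each haploid and diploid S-phase cell (columns, in order of progress, with the percentage of autosomal bins replicated under the axis). Green marks a replicated, gray an unreplicated bin, and orange a bin replicated on 1 homolog. The border moves right from Cdx2 to Foxa2, and gray cells at Cdx2 near 60% progress are seen in the diploid panel.

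The spread over cells was wide against the gaps between neighboring loci. Each locus was ranked within the profile of each cell, on the same scale of 10 h. This own rank was 1.80 ± 1.57 h for Cdx2 (SD, n = 138), 2.08 ± 1.71 h for Myod1, 2.69 ± 1.93 h for Gata4, 3.11 ± 1.77 h for Eomes, 4.45 ± 1.92 h for Gata6, 4.44 ± 1.83 h for Sox17, 4.63 ± 2.14 h for T and 6.82 ± 2.10 h for Foxa2. Only the step from T to Foxa2, a mean within-cell difference of 2.19 ± 2.55 h, and the step from Eomes to Gata6, 1.34 ± 2.72 h, were wider than 1 h, and no neighboring pair differed by more than the SD over cells. Cdx2 ranked ahead of Myod1 in 85 of 138 cells, Myod1 ahead of Gata4 in 86, Gata4 ahead of Eomes in 81 and Eomes ahead of Gata6 in 101. Gata6 and Sox17 were near even at 71 of 138 cells, as were Sox17 and T at 71. T ranked ahead of Foxa2 in 111 cells. Gata4 and Eomes changed rank order between the lines, with Gata4 ahead in 34 of 75 haploid and 47 of 63 diploid cells. Loci in the same state in a cell have equal copy number in principle, so their ranks there do not give an order of replication. Cdx2 and Myod1 were both replicated in 119 cells, Cdx2 alone in 7 and Myod1 alone in 9. Myod1 and Gata4 were both replicated in 120 cells, and each alone in 6. Gata4 and Eomes were both replicated in 114 cells, Gata4 alone in 12 and Eomes alone in 6.

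The ends of the order were separated in most cells. Cdx2 ranked ahead of Foxa2 in 133 of 138 cells, 71 haploid and 62 diploid, by 5.02 ± 2.57 h. By state, Foxa2 was replicated with Cdx2 still unreplicated in 0 cells, and the same count was 0 for Myod1 and 1 for Gata4. The reverse, Cdx2 replicated and Foxa2 not, was seen in 89 cells. Gata6 was replicated without Sox17 in 21 cells and Sox17 without Gata6 in 23. All 8 loci were replicated in 28 cells, 22 haploid and 6 diploid, and every cell had replicated at least 1.

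**Figure D3:**
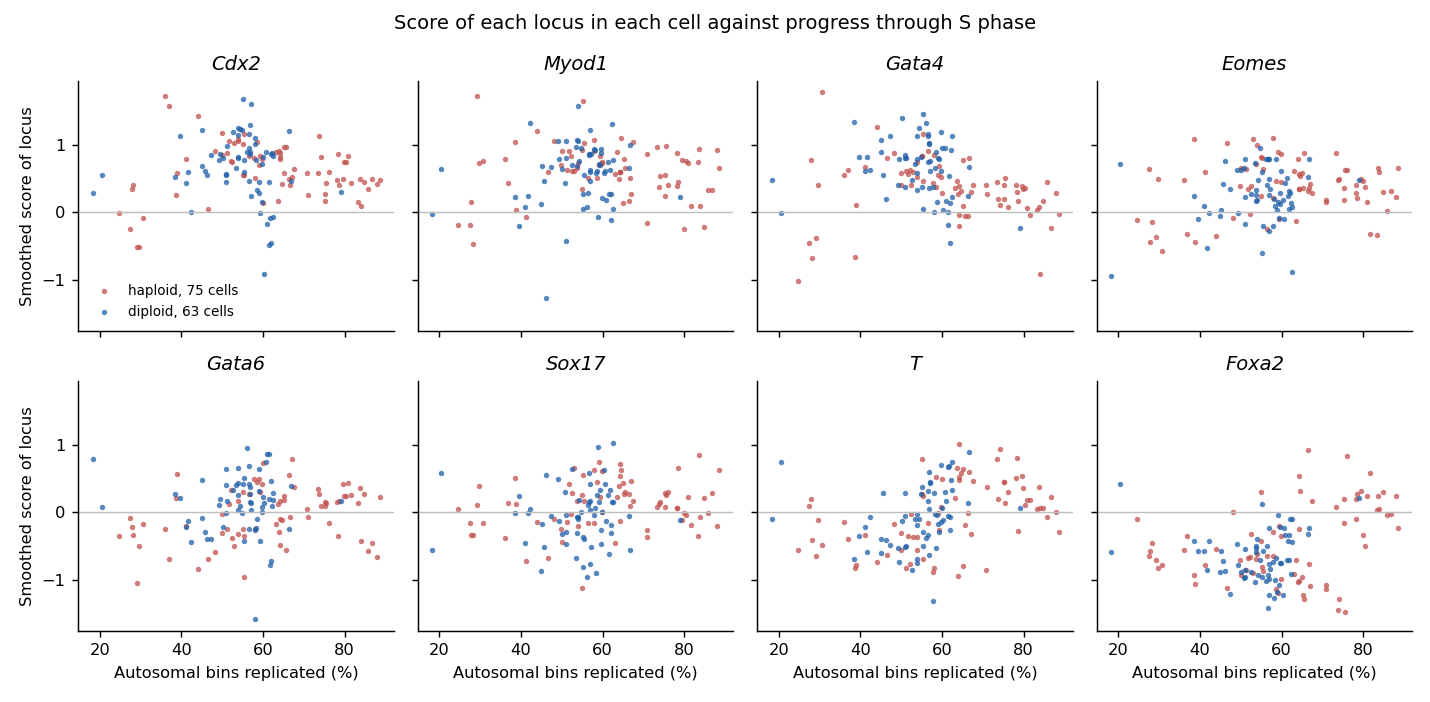
Smoothed score of each locus (vertical axis, relative within a cell) against progress, the percentage of autosomal bins replicated, for 75 haploid (red) and 63 diploid (blue) cells. Each point is 1 cell. T and Foxa2 scores lie mostly below 0 in cells before 50% progress, and Cdx2 scores lie mostly above 0 at all progress, with a group of diploid cells below 0 near 60%.

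Variation between cells was then measured at equal progress. Pairs were formed within and across the lines, with 94 haploid pairs, 159 diploid pairs and the rest mixed. Values over all pairs therefore include any difference between the lines. Each share is a mean over the bins of a locus, and a pair that differs on 1 homolog only counts in part. Among 404 pairs of cells within 1 percentage point of progress, the share of pairs whose states differed was 33.9% at Sox17, 33.8% at T, 30.1% at Gata6, 27.2% at Foxa2, 13.6% at Eomes, 8.23% at Cdx2, 5.65% at Gata4 and 4.93% at Myod1. The median over the 8 loci was 20.4%, against 12.9% over all bins (quartiles 4.95% and 29.7%). Over all pairs the 3 loci near the middle of S phase had the highest shares. In haploid pairs alone Foxa2 was highest, at 32.98%, ahead of T. Among the cells sampled, mid-scheduled bins differed most. The hourly median of all bins rose to 40.6% in the hour from 5 h and was 2.72% in the first. Of the 138 cells, 70 lay between 40% and 60% progress, and the hourly medians were not adjusted for this. They therefore give no ranking of bins by variability in itself. The paper reports the highest variation at segments whose timing matched the position of the cells, and no detectable difference between early and late bins. Against its own scheduled hour, Cdx2 stood above the upper quartile of 4.58%, as did Myod1. Myod1, at 0.898 h, lay near the end of that hour, and the quartiles of the next hour were 2.23% and 6.81%. A schedule from binarized states placed both loci after the first hour, Cdx2 at 2.16 h and Myod1 at 1.95 h. In haploid pairs alone the shares were 2.66% at Cdx2 and 3.83% at Myod1. T stood below the lower quartile of its hour, 37.5%, and at 5.11 h it lay at the start of that hour; the median of the hour before was 28.5%. The other 5 loci lay between the quartiles of their hours. Pairs share cells, so they are not independent, and no interval is given.

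The lines differed most in this measure at Sox17. There 15.1% of 94 haploid pairs and 41.5% of 159 diploid pairs differed. At Cdx2 the shares were 2.66% and 14.2%, at Gata6 20.6% and 32.1%, at T 25.9% and 37.1%, and at Eomes 8.94% and 15.03%. Myod1 had 3.83% and 4.84%. Gata4, with 8.33% and 6.39%, and Foxa2, with 32.98% and 26.2%, had the higher share in haploid pairs. The diploid pairs came from a narrower part of S phase, around 40% to 60% progress, and the part of this in the gaps was not tested.

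**Figure D4:**
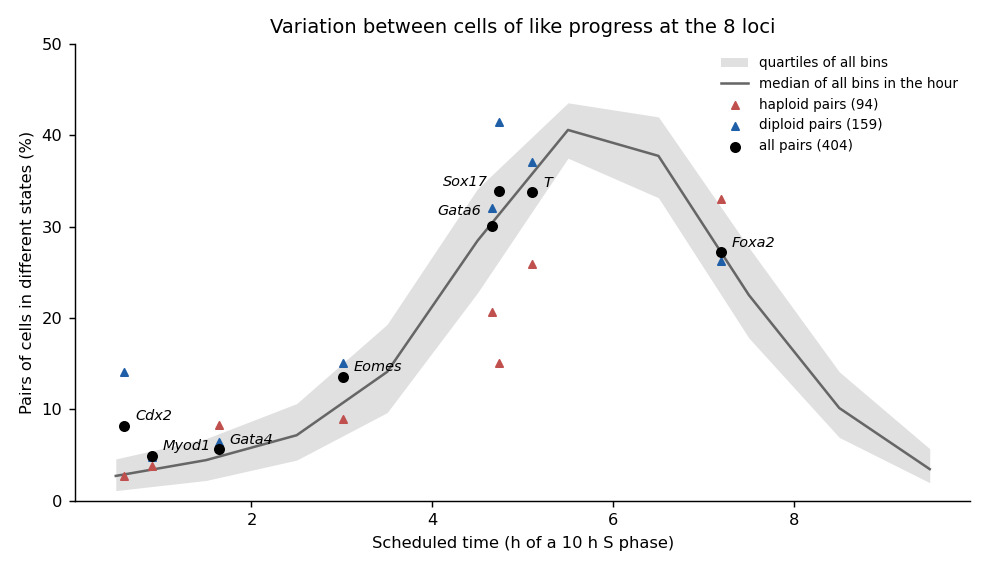
Share of pairs of cells within 1 percentage point of progress that had different states (vertical axis, percent) against scheduled time in h. Black circles are all 404 pairs, with mixed pairs of a haploid and a diploid cell included. Triangles are haploid (red) and diploid (blue) pairs. The gray line and band are the median and quartiles of all bins in each scheduled hour. The circle of Cdx2 lies above the band and the triangles of Sox17 lie farthest apart.

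States far off schedule were then counted. At Cdx2, 9 of 137 cells more than 1.5 h past its scheduled time were unreplicated, 3 haploid and 6 diploid, and at Myod1 9 of 136. The counts were 5 of 129 at Gata4, 3 of 40 at T, 4 of 48 at Gata6, 3 of 44 at Sox17 and 0 of 2 at Foxa2, each with cells of 1 unreplicated homolog included. Over all bins and cells the share was 4.69%. More than 1.5 h ahead of schedule, 3 of 9 cells had replicated T, 3 of 9 Sox17 and 2 of 9 Gata6. These 9 cells were the least advanced ones, and the share over all bins was 5.67%. Both shares over all bins pool bins of every scheduled time and are not matched to these loci. Over the 8 loci, 13 of 93 combinations of a locus and a cell were replicated more than 1.5 h ahead (13.98%) and 39 of 654 were unreplicated more than 1.5 h past (5.96%). The stretch of like state around the gene was short at Myod1, with a median of 0.65 Mb, and at Cdx2, with 0.85 Mb, and longer at Eomes, with 2.35 Mb.

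For the comparison of the lines, haploid minus diploid scores were taken within 5-point intervals of progress that held both lines, which left 53 haploid and 62 diploid cells. No locus reached a difference of 0.25. This limit was passed by 0 of the 8 loci, against 19.2% of all gene loci, and by 0 of the 38 bins, against 18.3% of all bins. The higher limit of 0.5 was passed by 0 of the 38 bins and 1.33% of all bins. The median size of the difference at the 8 loci was 0.139, against 0.123 over all bins.

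The haploid score was higher at Eomes, by 0.16 (0.46 against 0.30), Sox17, by 0.15 (0.11 against -0.04), Myod1, by 0.14 (0.71 against 0.56), and Cdx2, by 0.12 (0.78 against 0.66), and the difference at Foxa2 was 0.03. It was lower at Gata6, by -0.18 (-0.05 against 0.13), and Gata4, by -0.13 (0.49 against 0.63), and the difference at T was -0.06. Foxa2 turned to -0.04 with chromosomes centered in each cell and to -0.01 with intervals of 10 points, and without matching T turned to 0.05 and Cdx2 to -0.04. Centering of chromosomes also left little of the difference at Eomes (0.04), Cdx2 (0.02) and Myod1 (0.02), reduced it to -0.06 at Gata4 and -0.12 at Gata6, and moved T to -0.15 and Sox17 to 0.24. The SD over cells within intervals was 0.28 to 0.55, larger than each of these differences. The largest bin value was -0.24, at the upper edge of the Gata6 locus. In binarized states the difference in the share replicated, haploid minus diploid, was -14.7 percentage points at T, -13.6 at Gata6 and 10.5 at Sox17, and at the other 5 loci its size was at most 5.12 points. Score and state had opposite signs at Eomes, at -3.63 points, and at Gata4, at 0.92 points.

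**Figure D5:**
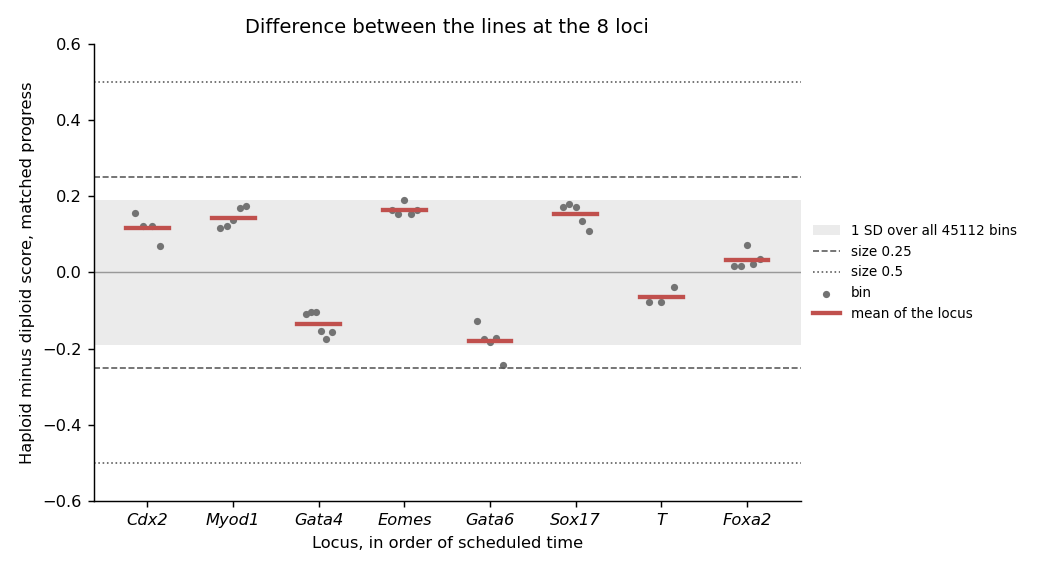
Haploid minus diploid smoothed score at matched progress (vertical axis) for each bin (gray points) and the mean of each locus (red bars), in order of scheduled time. The gray band is 1 SD of the difference over all 45112 bins, and the dashed and dotted lines mark sizes of 0.25 and 0.5. All 38 bins lie within 0.25 of 0.

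Homologs of the diploid line were called different in 8 combinations of a locus and a cell, 6 with the 129 homolog replicated and 2 with Castaneus. Eomes had 1 of each, in the cells H4 and F11. Gata4 had 2 with 129 replicated, Myod1 2 with 129, Gata6 1 with 129 and Foxa2 1 with Castaneus, in the cell H8 at 46.2% progress. T, Sox17 and Cdx2 had 0 of 63 cells, which allows a share of up to about 4.76% by the rule of 3, not by the exact interval used elsewhere. At the bins of the genes this was 1.59% of combinations, against 0.870% over all bins and cells. The homologs carry the same state unless enough parsed reads showed otherwise, so an equal state is partly a default, and the authors called 129 at a slightly lower limit than Castaneus. The cell F11 contributed 2 of the 8 cases and had 8.58% of all its bins called different. Without 1 cell of each of the 3 pairs with correlated scores, which leaves out F11, 5 cases were counted.

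The genes that followed each locus most closely over the 138 cells were sought on the other chromosomes, by the share of cells with another state. The gene's bin was unreplicated in 8 cells at Myod1, 8 at Gata4 and 10 at Cdx2. Any gene replicated in nearly all cells has a low share there, so closeness at early loci is partly set by timing. The nearest to Myod1 were Hipk3, in another state in 2.86% of cells, D430041D05Rik and Tspan11 (3.77%). Slc12a8 differed from Gata4 in 4.06%, followed by Heg1 and Gp5 (4.18%), and Mfsd14a and Mkrn2 differed from Cdx2 in 5.25%, followed by Gm51963 (5.33%). For Eomes they were Spata18 (7.61%), Lrrc66 and Sgcb (both 7.68%), and for Foxa2 Tmem182 (15.7%), Hlf and Gm10334 (16.2%). The nearest genes were less close in the middle of S phase, where states were mixed over cells. Ccn6, Spry1 and Arl6ip1 differed from Gata6 in 19.6% of cells, and were scheduled earlier than Gata6, at 2.67, 2.98 and 2.23 h. Lhfpl3 differed from Sox17 in 20.4%, followed by Plet1 and Pts (20.7%), and Foxo1 differed from T in 20.98%, followed by Anxa2 and Atxn1 (22.7%).

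A wider list of 42 lineage genes gave the setting of the 8 loci. All 42 had values. In the first 5 h were 12 of 14 mesoderm genes (median 2.22 h), 11 of 12 endoderm genes (1.99 h), 9 of 9 trophoblast genes (1.28 h) and 3 of 7 skeletal muscle genes (5.30 h), or 83.3% of the list against 79.4% of all gene loci. Like Cdx2, the trophoblast genes Ets2 (0.0115 h), Gata2 (0.310 h) and Tead4 (0.629 h) were scheduled in the first hour, and Gata3 was the latest of its group at 4.07 h. Among endoderm genes Hnf4a, a hepatocyte regulator, was the earliest at 0.115 h. Foxa1, the pioneer factor related to Foxa2, was the latest at 5.86 h, and Foxa3 lay at 3.48 h. Of the mesoderm genes Nkx2-5, a heart regulator, lay at 0.326 h and Isl1 at 9.46 h.

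The muscle genes were split. Pax7, of muscle stem cells, was the earliest at 0.0623 h. Myod1 and Myog, which acts later in myogenesis, lay at 0.898 h and 0.211 h. Myf5 and Myf6, neighbors that share bins, both lay at 8.45 h. Over all progress, 21.9% of haploid cells and 1.90% of diploid cells had replicated them. The lines differed in progress. At matched progress the share was 6.56 percentage points higher in haploid cells, with a score difference of 0.11. Mef2c lay at 8.42 h. A difference between the lines of at least 0.25 was seen at 9 of the 42 genes, against 19.2% of all gene loci, among them Lhx1 (0.30), Hhex (0.29), Mesp1 (0.28), Mesp2 (0.27), Foxa3 (0.26) and Cer1 (0.25) with the haploid score higher, and Ets2 (-0.28) and Pax3 (-0.25) with it lower. No gene of the list reached 0.5. Mesp1 and Mesp2 share bins, and Pdx1 shares bins with Cdx2.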

How the data were processed

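The authors' methods state that reads were aligned to mm10 with Bowtie 2 and counted in 50 kb windows, that coverage was divided by that of G1 and G2 control cells, and that each cell was centered, scaled and median smoothed over 15 windows (750 kb). The deposited smoothed values are a score, relative within a cell and not a copy number. The other deposited table holds states made by the authors, 0 for unreplicated and 1 for replicated segments of at least 5 bins, with the homologs of diploid cells in separate columns. These steps even out differences over a few bins, and a call at a locus reflects its surroundings as well as the gene.

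The labels name 188 cells, and values were matched by the well in the cell's name to 138 of them. A further 24 columns of per-cell values matched no labelled cell and were not used. A bin was used if no cell lacked a state there and a score was given in 50% or more of each line's cells. Homologs were averaged. Gene positions, GC content and promoters came from RefSeq GRCm38.p6, the same assembly as mm10. Of 19 autosomes, 0 had bins past the reference length. The gene's bin is the bin that holds the middle of the gene.

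The 8 genes, the wider list and the measures were chosen with earlier results of these data known. The rule for named genes was the 8 members, their neighbors, the earliest and latest gene of each group of the wider list, those with a line difference of at least 0.25, and the 3 genes most alike to each member. Other genes of the wider list were named after their values were seen. The values of 1 gene of the wider list are not reported here. The scripts were tested on simulated data. Python 3.11.15, numpy 2.4.6, pandas 2.3.3, scipy 1.17.1 and matplotlib 3.10.9 were used. Alternatives changed the schedule, the bins of a locus, the pairs of cells, the matching of progress and the bin filter.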

Additional observations from a re-analysis of the deposited data

How the results depend on the processing

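The number of loci scheduled in the first 5 h was 6 and ranged from 5 to 7 over 11 alternatives. The haploid cells alone gave 5, and a linear time scale and the bins of the gene alone gave 7. T crossed 5 h with both of the latter, and Gata6 with the haploid cells. Foxa2 was the latest locus under all 11, and Cdx2 the earliest under all but binarized states, where Myod1 came first. The median share of pairs that differed was 20.4% and became 12.02% with haploid pairs alone. With a score above 0 in place of the state it was 21.9%. By locus that change moved Eomes to 28.7%, Gata4 to 13.4%, Myod1 to 11.4%, T to 41.7%, Gata6 to 41.5% and Sox17 to 47.1%, and Foxa2 to 15.2%. The number of loci with a line difference of at least 0.25 was 0, and it became 1 without matching for progress, where Gata4 reached -0.30. The haploid cells were on average further through S phase. Of 8 loci, 5 kept the sign of their difference under all 9 alternatives on the score scale, and T, Foxa2 and Cdx2 did not. With centered chromosomes Eomes, Cdx2 and Myod1 were at most 0.04. Homolog differences numbered 8 and fell to 5 without 1 cell of each pair with correlated scores. That alternative and the one with annotated gene ends were chosen after seeing the data. All 33 alternatives of these 4 summaries were run, and 30 stayed within the limits set for a change. The limits are no test, and a count of 5 or 7 early loci in place of 6 lay within them. At single loci more alternatives passed the limits for the share of pairs, 16 of 64. The line difference passed them in 2 of 80 and the scheduled time in 0 of 88. These limits were wide. For the scheduled time the limit was the SD of own rank over cells, 1.57 to 2.14 h. With binarized states Cdx2 moved from 0.594 to 2.16 h and Myod1 from 0.898 to 1.95 h, within it. For the line difference in score it was the SD over cells, larger than each difference, so a change of sign could stay within it. The 2 counts therefore say little about stability. No paired analysis was possible because a number or well shared by cells of the lines only names a cell and pairs none, and no test was run.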

Other observations

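Some cells were far off schedule at several loci. A gene's bin was replicated over 1.5 h ahead of schedule, or unreplicated on at least 1 homolog over 1.5 h past it, in 52 of the 747 combinations of a locus and a cell that far from schedule (6.96%). Over all bins, not matched for scheduled time, the shares were 5.67% ahead and 4.69% past. The 52 cases fell in 41 of 138 cells, of which 32 had 1 locus off schedule, 7 had 2 and 2 had 3. The diploid cell C3, at 61.95% progress, had Cdx2, Gata4 and Gata6 unreplicated. The diploid cell F11, at 55.1%, had Foxa2 replicated and Eomes and Myod1 unreplicated on 1 homolog each. The diploid cell C12, at 57.03%, also had Foxa2 replicated and Eomes unreplicated, and its scores correlated with those of F11 (Pearson r = 0.924 over bins). The haploid cell E4, at 48.2%, showed the same exchange of Foxa2 and Eomes. Among the least advanced cells, in the diploid C7 at 20.4% and the haploid A7 at 27.4%, T and Sox17 were both replicated. What these cells share beyond their states was not tested.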
